A study of Mus musculus with 6 samples.

Results

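The 5 genes of the mitotic cohesin core, *Smc3*, *Smc1a*, *Rad21*, *Stag1* and *Stag2*, were followed through the B cell states and cell cycle phases of 6 single cell RNA-seq libraries. They were taken by symbol from the deposited feature list, where each symbol occurred once, so that 5 of 31053 features are described. Counts were unique molecular identifiers (UMIs), each standing for 1 captured transcript. Over all barcodes, before cells were filtered, *Smc3* had 19523 UMIs, *Smc1a* 24336, *Rad21* 15675, *Stag1* 7073 and *Stag2* 8045.

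The libraries held splenic cells sorted 8 days after immunization with sheep red blood cells and labelled as germinal center (GC) B cells. All 6 came from mice that carry *Cγ1*-Cre, a Cre allele driven from the *Ighg1* locus that acts in B cells entering the GC reaction. In 3 libraries *Smc3* was wild type (*Smc3* wt/wt, labelled as wild-type controls) and in 3 it was heterozygous (labelled *Smc3* +/-, written *Smc3* wt/- here). Per the methods of the study, the conditional *Smc3* allele targets exon 4, so cells that never expressed Cre, such as naive B cells in the sort, are not expected to have lost it. The age and sex of the mice, and whether 1 library is 1 mouse, are not given in the sources used here, and the methods of the study name more *Smc3* wt/wt mice than the 3 libraries analysed here, so p-values between genotypes measure the spread between libraries.

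Cohesin is a ring that holds sister chromatids together from DNA replication to anaphase and, in interphase, extrudes chromatin loops. *Smc3* and *Smc1a* are its paired ATPases, and *Rad21* is the kleisin that closes the ring and is cut by separase at anaphase. *Stag1* and *Stag2* are alternative HEAT repeat subunits that bind *Rad21*, so that a complex carries either. GC B cells divide fast in the dark zone as centroblasts, are selected in the light zone as centrocytes, and leave as memory B cells or as plasmablasts and plasma cells.

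The members lie on 4 chromosomes of GRCm38. *Smc3* (ENSMUSG00000024974) spans chr19:53600398-53645833 on the plus strand and *Rad21* (ENSMUSG00000022314) spans chr15:51962240-51991747 on the minus strand. *Stag1* (ENSMUSG00000037286) spans chr9:100597798-100959375 on the plus strand, where 3 annotated genes overlap it on the same strand, and the overlap may affect its counts. *Smc1a* (ENSMUSG00000041133) at chrX:152016428-152062694 and *Stag2* (ENSMUSG00000025862) at chrX:42149317-42277185, both on the plus strand, are X-linked.

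The exon that the *Smc3* allele targets is shown because it bears on what the counts can and cannot see. It is exon 4 of 29 of transcript Smc3-201, at chr19:53615106-53615173 on the plus strand, and its 68 bases are all coding. Its length leaves a remainder of 2 on division by 3. It covers bases 273 to 340 of a transcript of 4851 bases, which leaves 4511 bases between it and the 3′ end. Libraries of this kind count 3′ ends, so a transcript that lacks this exon is still counted as *Smc3* where it is made and kept.
*Smc3* exon 4: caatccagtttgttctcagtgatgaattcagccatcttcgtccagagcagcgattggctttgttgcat

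Promoters are shown because several members moved together between states and phases. RefSeq windows of 250 bases before the start (GRCm38.p6, transcribed strand) were at hand for 3 of the 5 members, and *Rad21* and *Stag2* had none. They lie at chr19:53600146-53600395 for *Smc3*, chrX:152016178-152016427 for *Smc1a* and chr9:100643198-100643447 for *Stag1*. Motifs of 3 kinds known from cell cycle promoters were searched on both strands: E2F (TTTGGCGC, TTTCCCGC, TTTGCCGC or TTTCGCGC), the CCAAT box (CCAAT) and the CHR element (TTTGAA). Capitals mark each match, and ATTGG is CCAAT read on the other strand.
*Smc3* promoter: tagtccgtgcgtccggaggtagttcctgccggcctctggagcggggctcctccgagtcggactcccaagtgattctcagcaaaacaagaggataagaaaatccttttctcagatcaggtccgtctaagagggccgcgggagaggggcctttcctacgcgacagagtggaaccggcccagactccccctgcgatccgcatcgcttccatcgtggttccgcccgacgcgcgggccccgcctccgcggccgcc
*Smc1a* promoter: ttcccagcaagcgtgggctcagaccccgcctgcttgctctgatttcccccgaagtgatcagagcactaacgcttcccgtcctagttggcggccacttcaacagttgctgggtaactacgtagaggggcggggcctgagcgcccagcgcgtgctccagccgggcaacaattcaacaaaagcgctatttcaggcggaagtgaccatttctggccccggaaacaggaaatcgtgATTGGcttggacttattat
*Stag1* promoter: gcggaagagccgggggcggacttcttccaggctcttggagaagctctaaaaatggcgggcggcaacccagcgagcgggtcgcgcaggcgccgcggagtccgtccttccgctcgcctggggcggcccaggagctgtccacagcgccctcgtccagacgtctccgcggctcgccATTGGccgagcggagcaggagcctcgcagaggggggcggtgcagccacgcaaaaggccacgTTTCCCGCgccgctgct

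The *Stag1* window held the E2F word TTTCCCGC 17 bases before the start and a CCAAT box 78 bases before it. The *Smc1a* window held a CCAAT box 19 bases before the start, and the *Smc3* window held none of the words. Of 32851 windows of this length in the RefSeq table, 1.86% held an E2F word, 33.85% a CCAAT box and 15.99% a CHR element. The *Stag1* window precedes a start inside the gene span given above, not the first base of that span. Matches are given as descriptions of these letters only.

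Library totals ranged from 5223325 to 35354257 UMIs, and 20847 of 22939 barcodes were kept, 1013 to 4971 per library. Clusters built without the 5 members, their regulators and other SMC genes gave 14237 GC B-like cells, 1828 naive or memory B-like cells and 2073 plasma-lineage cells, while 1438 cells of a haemoglobin-led cluster and 1271 of other clusters entered no main comparison. The former was named for its leading genes. Haemoglobin made up 21.8% of its UMIs in *Smc3* wt/- replicate 2 but 0.0114% to 0.511% in the other libraries. Of its cells 0% to 6.82% per library were called S or G2/M, and the G1 comparisons leave them out. The summed level of 8 GC B cell markers was 571 to 2625 CPM (UMIs of a gene scaled to a fixed total of all UMIs) in GC B-like cells against 133 to 408 in naive or memory B-like cells, and 10 plasma markers summed to 32409 to 100914 CPM in plasma-lineage cells. Markers of T cells summed to at most 25.7 CPM in any state, those of myeloid cells to 170 to 456 CPM in all 3 states. Erythroid markers summed to 64.2 to 1266 CPM and neutrophil markers to 0.15 to 560 CPM in GC B-like cells, against 34.9 to 350 and 0 to 69.4 in naive or memory B-like and 2.63 to 464 and 0 to 64.3 in plasma-lineage cells, and their part in the results was not tested. *Smc3* wt/- replicate 2 stood apart, with 51.9% of its UMIs from immunoglobulin genes against 2.37% to 3.90% in the other libraries, and it supplied 1420 of the 1503 plasma cell-like (PC-like) cells. Y-linked transcripts were found in replicates 1 and 2 of *Smc3* wt/wt and in this library, while *Xist* reached 641 to 929 CPM in the other 3. Pairs of libraries shared 4 to 43 cell barcodes, at most 0.946% of the smaller library.

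The ring subunits rose together from naive or memory B-like to GC B-like cells, while neither Stag subunit passed the test. Counts were summed per library and state and scaled by the trimmed mean of M values (TMM), so levels of states and phases are TMM-scaled CPM, and the states and phases were compared within library. *Smc3* had a lowest, median and highest library of 47.1, 61.0 and 75.0 in naive or memory B-like cells, against 104, 121 and 137 in GC B-like cells. *Smc1a* had 51.2, 77.0 and 82.8 against 123, 152 and 173. *Rad21* had 33.4, 48.1 and 60.2 against 74.0, 103 and 123. For all 3 genes every GC B-like value lay above every naive or memory B-like value.

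The log2 fold changes were 1.0 for *Smc3* (SE 0.10), 1.06 for *Smc1a* (SE 0.14) and 1.13 for *Rad21* (SE 0.11), with adjusted p of 5.6e-07, 9.7e-06 and 9.0e-07 (edgeR quasi-likelihood test, Benjamini-Hochberg over 7874 genes, threshold 0.05). *Stag1* had 27.0, 34.4 and 48.3 in naive or memory B-like cells, against 32.2, 40.3 and 47.6 in GC B-like cells, and it was higher in GC B-like cells in 3 of 6 libraries. Its log2 fold change was 0.22 (95% interval -0.05 to 0.49, adjusted p 0.167). *Stag2* had 32.1, 42.0 and 43.7 against 37.5, 48.4 and 54.5, higher in 6 of 6 libraries, at 0.26 (0.03 to 0.49, adjusted p 0.0568). Of all genes tested, 26.1% were called higher and 27.1% lower, so a call by itself sets no member apart. Without *Smc3* wt/- replicate 2 the ring subunits stood at 0.96, 0.99 and 1.12, and *Stag2* passed the threshold at 0.30 (adjusted p 0.0214), as it did without *Smc3* wt/wt replicate 1 at 0.32 (adjusted p 0.0356).

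**Figure D1:**
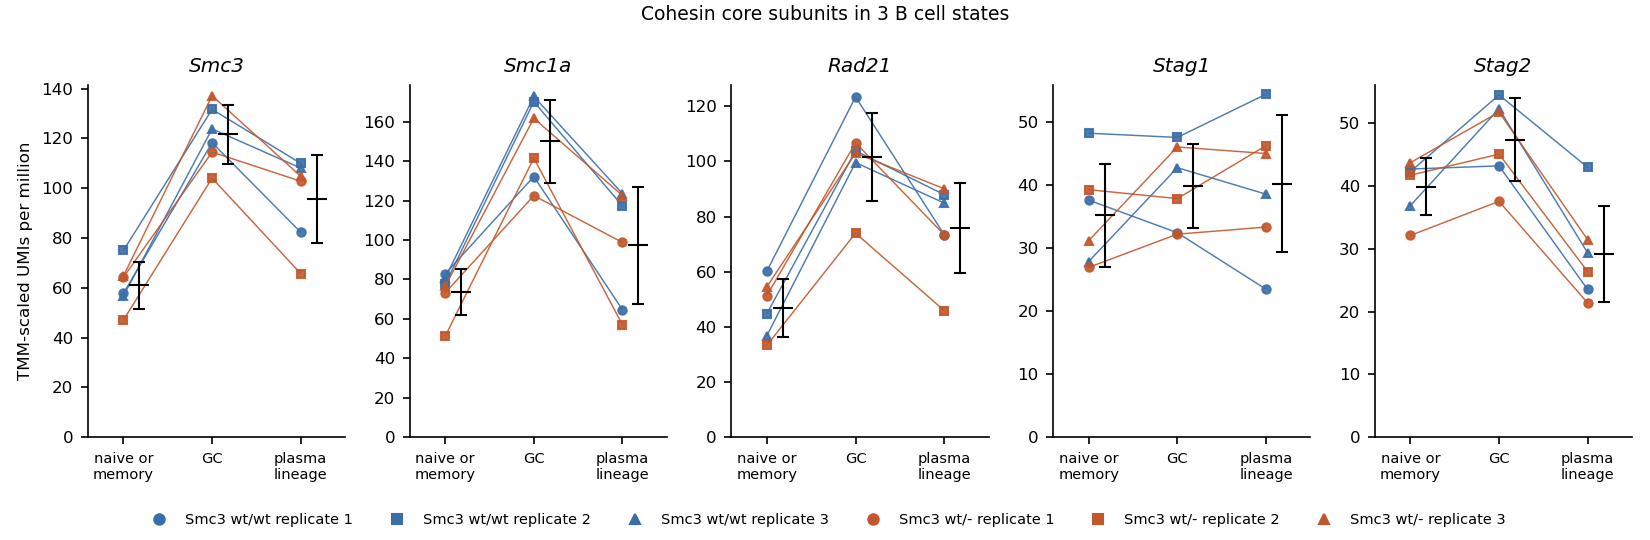
Level of each cohesin core subunit (TMM-scaled CPM, y axis from 0) in naive or memory B-like, GC B-like and plasma-lineage cells, with 1 line per library, blue for *Smc3* wt/wt and orange for *Smc3* wt/-, and black marks for the mean and SD over 6 libraries. *Smc3*, *Smc1a* and *Rad21* peak in GC B-like cells in all 6 libraries, while *Stag1* shows no common direction and *Stag2* is lowest in plasma-lineage cells in 5 of 6.

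In plasma-lineage cells, the antibody-secreting plasmablasts and plasma cells, the median levels of the ring subunits stood between those of the other states and *Stag2* stood lowest. *Smc3* had 65.7, 104 and 110.0 TMM-scaled CPM over the libraries, *Smc1a* 57.0, 108 and 124, and *Rad21* 45.9, 79.2 and 90.1. All 3 were below GC B-like cells in 6 of 6 libraries, although their ranges over libraries overlapped. *Stag2* had 21.4, 27.8 and 42.9, also below GC B-like cells in 6 of 6 libraries, while *Stag1* had 23.5, 41.8 and 54.5 and was lower in 3 of 6.

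Against GC B-like cells the log2 fold changes in plasma-lineage cells were -0.36 for *Smc3* (SE 0.09, adjusted p 0.00381), -0.65 for *Smc1a* (SE 0.13, adjusted p 0.000567), -0.42 for *Rad21* (SE 0.11, adjusted p 0.00381) and -0.71 for *Stag2* (SE 0.11, adjusted p 6.2e-05). *Stag1* was at 0.03 (-0.24 to 0.30, adjusted p 0.868). So 4 of 5 members were called lower, beside 29% of all genes called lower and 24.2% called higher. Without *Smc3* wt/- replicate 2 the 4 calls held, at -0.27, -0.48, -0.33 and -0.67. Over all alternatives *Smc3* ranged from -0.63 to -0.19, *Smc1a* from -0.93 to -0.45, *Rad21* from -0.69 to -0.22 and *Stag2* from -0.98 to -0.55. Among plasmablast-like (PB-like) cells alone, a comparison added after the data were seen, *Smc3* was at -0.19 (adjusted p 0.0671) and *Rad21* at -0.22 (adjusted p 0.0825), so that *Smc1a* and *Stag2* kept their calls and these genes did not. The PB-like class was not alike across libraries. *Smc3* wt/- replicate 2 supplied 331 of its 570 cells, with 41.8% immunoglobulin UMIs and 19.6% of cells called S or G2/M. In the other libraries these were 11.6% to 16.4% and 55.2% to 85.7%.

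Against naive or memory B-like cells, plasma-lineage cells had higher *Smc3* (log2 fold change 0.64, SE 0.10, adjusted p 4.7e-05), *Smc1a* (0.40, SE 0.14, adjusted p 0.0244) and *Rad21* (0.71, SE 0.12, adjusted p 0.000102). *Stag2* was lower (-0.45, SE 0.13, adjusted p 0.00569) and *Stag1* was at 0.25 (-0.05 to 0.55, adjusted p 0.144). Thus 3 members were called higher and 1 lower, beside 28.8% and 30.2% of all genes. *Smc1a* ranged from 0.35 to 0.91 over the alternatives. It lost its call without *Smc3* wt/wt replicate 2, without *Smc3* wt/wt replicate 3 or without *Smc3* wt/- replicate 3, with adjusted p of 0.0952 to 0.102. *Stag1* gained one without *Smc3* wt/wt replicate 1, at 0.35 (adjusted p 0.0404). *Stag2* fell short among PB-like cells alone, at -0.28 (adjusted p 0.0684). Immunoglobulin genes took 21.2% to 66.3% of plasma-lineage UMIs and 1.36% to 3.32% of GC B-like UMIs, a share that TMM scaling is meant to offset. With immunoglobulin genes left out of the sums, no state call of a member was lost and *Stag2* gained one, between GC B-like and naive or memory B-like cells (0.27, adjusted p 0.0478).

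UMIs per cell, which are not scaled to a library total, gave another view of the same states. Naive or memory B-like cells held 0.134 to 0.269 *Smc3* UMIs per cell over the libraries and GC B-like cells 0.728 to 1.30. The median ratio was 4.85, and it was above 1 in 6 of 6 libraries. For plasma-lineage over GC B-like cells the median ratio was 1.17 for *Smc3* (above 1 in 3 of 6 libraries), 1.03 for *Smc1a* (3 of 6), 1.06 for *Rad21* (4 of 6), 1.32 for *Stag1* (5 of 6) and 0.813 for *Stag2* (1 of 6), where the scaled levels of the ring subunits were lower in 6 of 6. Plasma-lineage cells held a median of 11348 to 19023 UMIs of all kinds. GC B-like cells also held more UMIs of all kinds, with a median of 4058 to 6543 per cell against 1870 to 2797. In sums over cells, more transcript per cell and more cells with the transcript cannot be told apart.

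The states differed in the share of cells called cycling and in their depth per cell, with 53.8% to 75.9% of GC B-like cells called S or G2/M per library, 0.679% to 13.8% of naive or memory B-like cells and 3.71% to 66.1% of plasma-lineage cells. The summed level of 10 S-phase markers was 1683 to 2789 CPM in GC B-like, 247 to 1134 in naive or memory B-like and 72.9 to 1484 in plasma-lineage cells, and that of 12 dark zone and G2/M markers was 1981 to 3181, 112 to 1349 and 79.2 to 1851 in the same order. Phase calls rest on 43 S and 54 G2/M genes that include no member. The states were therefore compared again among cells called G1. *Smc3* then had 34.5, 45.9 and 58.2 TMM-scaled CPM in naive or memory B-like cells, against 65.9, 68.5 and 72.3 in GC B-like cells. *Smc1a* had 32.2, 45.8 and 59.8 against 60.1, 76.0 and 81.2. For both genes every GC B-like value was above every naive or memory B-like value.

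Among G1 cells *Smc3* was higher in GC B-like than in naive or memory B-like cells by 0.57 (SE 0.15, adjusted p 0.00393) and *Smc1a* by 0.69 (SE 0.14, adjusted p 0.000781) on the log2 scale. *Rad21* was higher in 6 of 6 libraries with overlapping ranges, at 0.38 (0.04 to 0.72, adjusted p 0.0641). Its call turned with the setting, since it passed without *Smc3* wt/- replicate 2 (0.34, adjusted p 0.0484). *Stag1* was at -0.31 (-0.67 to 0.05, adjusted p 0.148), lower in 5 of 6 libraries, and *Stag2* at 0.14 (-0.20 to 0.49, adjusted p 0.504). In this comparison 22% of 6701 genes were called higher and 22.8% lower. The 3 ring subunits thus had smaller point estimates among G1 cells than among all cells, from 1.0 to 0.57, 1.06 to 0.69 and 1.13 to 0.38, a change that was not itself tested.

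Plasma-lineage G1 cells were few outside 1 library, and *Smc3* wt/wt replicate 1, with 16 such cells, was left out of them. *Stag2* had 18.0, 25.1, 0, 22.8 and 26.1 TMM-scaled CPM in replicates 2 and 3 of *Smc3* wt/wt and *Smc3* wt/- replicates 1, 2 and 3, from 4, 9, 0, 128 and 8 UMIs. Every one of these values was below every *Stag2* value of GC B-like G1 cells, which were 28.0 at the lowest. *Stag1* had 40.5, 44.6, 8.53, 42.1 and 45.7 in the same order, from 9, 16, 1, 236 and 14 UMIs, and was above GC B-like G1 cells in 4 of 5 libraries.

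Against GC B-like G1 cells *Stag2* was at -0.82 (SE 0.22, adjusted p 0.00544), *Smc1a* at -0.67 (SE 0.18, adjusted p 0.00462) and *Stag1* at 0.64 (SE 0.21, adjusted p 0.0161), while *Smc3* was at -0.24 (adjusted p 0.273) and *Rad21* at 0.21 (adjusted p 0.844). The background was 22.5% called higher and 25.5% lower. Against naive or memory B-like G1 cells *Rad21* was at 0.59 (SE 0.21, adjusted p 0.0435) and *Stag2* at -0.68 (SE 0.23, adjusted p 0.02), with 23.9% of genes called higher and 26.6% lower, and the other 3 members did not pass. The *Rad21* call was lost in 8 of 18 alternatives, at 0.49 to 0.58 (adjusted p 0.0541 to 0.154), among them DESeq2, RLE scaling and leaving out any 1 of 4 libraries. The *Stag1* call against GC B-like cells was lost in 7 of 18, with the lowest value at 0.36 (adjusted p 0.127, thinned phase calls) and the highest adjusted p at 0.194 (0.41, no low-count filter). *Smc1a* was at -0.31 (adjusted p 0.152) with thinned phase calls. Without *Smc3* wt/- replicate 2 the *Smc1a* value against GC B-like cells became -0.47 (adjusted p 0.0547), *Stag1* 0.52 (adjusted p 0.0925) and *Rad21* 0.57 (adjusted p 0.0297), and *Stag2* against naive or memory B-like cells stayed at -0.68 (adjusted p 0.0920). Among PB-like cells alone none of these 5 calls held, with only 2 libraries holding 20 such G1 cells. *Stag2* was then at -0.65 against GC B-like cells (adjusted p 0.0896) and at -0.48 against naive or memory B-like cells (adjusted p 0.202), *Smc1a* at -0.52 (adjusted p 0.111) and *Stag1* at 0.53 (adjusted p 0.173) against GC B-like cells, and *Rad21* at 0.49 against naive or memory B-like cells (adjusted p 0.154).

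**Figure D2:**
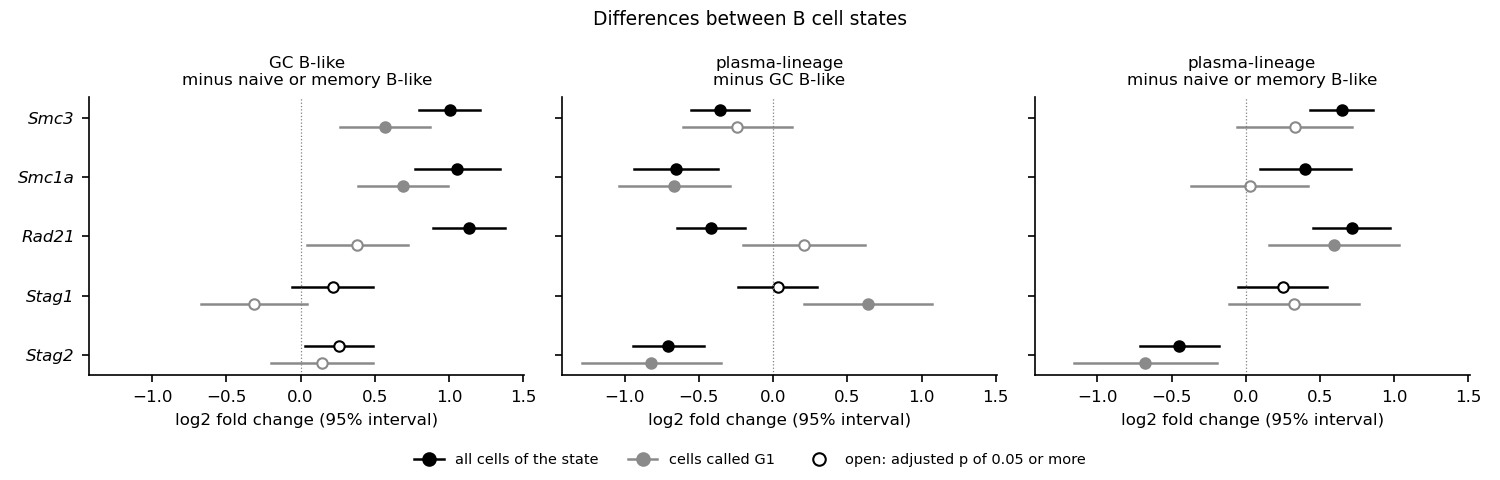
Log2 fold change of each member between states, with its 95% interval from edgeR, among all cells of a state (black) and among cells called G1 (grey), where open points had an adjusted p of 0.05 or more. The 3 ring subunits lie near 1 in the GC B-like comparison over all cells and nearer to 0 among G1 cells, and *Stag2* lies below 0 in both plasma-lineage comparisons.

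Within GC B-like cells all 5 members were higher in S and in G2/M than in G1, and they peaked in different phases. The calls gave 4302 G1, 4613 S and 5322 G2/M cells. *Rad21* climbed through all 3 phases, with 45.6, 53.2 and 70.6 TMM-scaled CPM in G1, 74.3, 93.3 and 118 in S and 143, 198 and 231 in G2/M (lowest, median and highest library). On this scale the values of the 3 phases did not overlap, while in CPM without TMM scaling those of G1 and S did. Its partner *Smc1a* followed the same order, with 83.6, 103 and 112 in G1, 139, 205 and 219.9 in S and 194, 243 and 276 in G2/M.

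*Smc3* was highest in S instead, with 90.2, 94.3 and 97.4 in G1, 163, 181 and 199 in S and 130.2, 157 and 197 in G2/M. It fell from S to G2/M in 5 of 6 libraries. *Stag1* had 22.9, 32.7 and 45.8 in G1, 43.4, 60.0 and 67.3 in S and 43.7, 58.4 and 65.1 in G2/M. *Stag2* had the smallest changes from G1, with 38.9, 51.2 and 52.5 in G1, 45.5, 65.4 and 71.4 in S and 52.6, 66.4 and 78.1 in G2/M.

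From G1 to S the log2 fold changes were 1.0 for *Smc3* (SE 0.05, adjusted p 1.6e-17), 0.94 for *Smc1a* (SE 0.05, adjusted p 3.0e-18), 0.89 for *Rad21* (SE 0.06, adjusted p 5.7e-14), 0.63 for *Stag1* (SE 0.07, adjusted p 6.0e-10) and 0.38 for *Stag2* (SE 0.06, adjusted p 2.1e-06). All 5 were called higher, beside 29.2% of 9653 genes called higher and 31.8% lower. From G1 to G2/M they were 0.86 (SE 0.05, adjusted p 6.7e-16), 1.29 (SE 0.05, adjusted p 8.6e-23), 1.95 (SE 0.06, adjusted p 4.0e-25), 0.66 (SE 0.06, adjusted p 1.2e-10) and 0.50 (SE 0.06, adjusted p 5.0e-09) in the same order. Again all 5 were called higher, beside 29.3% of genes higher and 29.4% lower. These calls held without *Smc3* wt/- replicate 2 and without every other library in turn.

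Between S and G2/M the members parted. *Rad21* was higher in G2/M by 1.06 (SE 0.04, adjusted p 1.3e-20) and *Smc1a* by 0.35 (SE 0.04, adjusted p 7.4e-10), while *Smc3* was lower, at -0.14 (SE 0.04, adjusted p 0.00540). *Stag2* was higher by 0.12 (SE 0.05, adjusted p 0.0257), and *Stag1* was at 0.03 (-0.07 to 0.13, adjusted p 0.664). Of all genes 27.4% were called higher and 27.1% lower. The 2 smallest differences were fragile, since *Smc3* missed the threshold without *Smc3* wt/wt replicate 3 (-0.12, adjusted p 0.0527) and *Stag2* without any 1 of *Smc3* wt/wt replicates 1 and 2 and *Smc3* wt/- replicates 1 and 3 (0.09 to 0.11, adjusted p 0.0555 to 0.199), with DESeq2 (0.12, adjusted p 0.0999) and with thinned phase calls (0.07, adjusted p 0.276). Of the GC B-like cells 16.9% lay within 0.05 of a boundary between phase scores, and 10.3% of calls changed when cells were thinned to 2000 UMIs. Median UMIs per cell were 2818 to 4325 in G1 and 4818 to 8507 in G2/M, so the phases also differ in depth per cell.

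**Figure D3:**
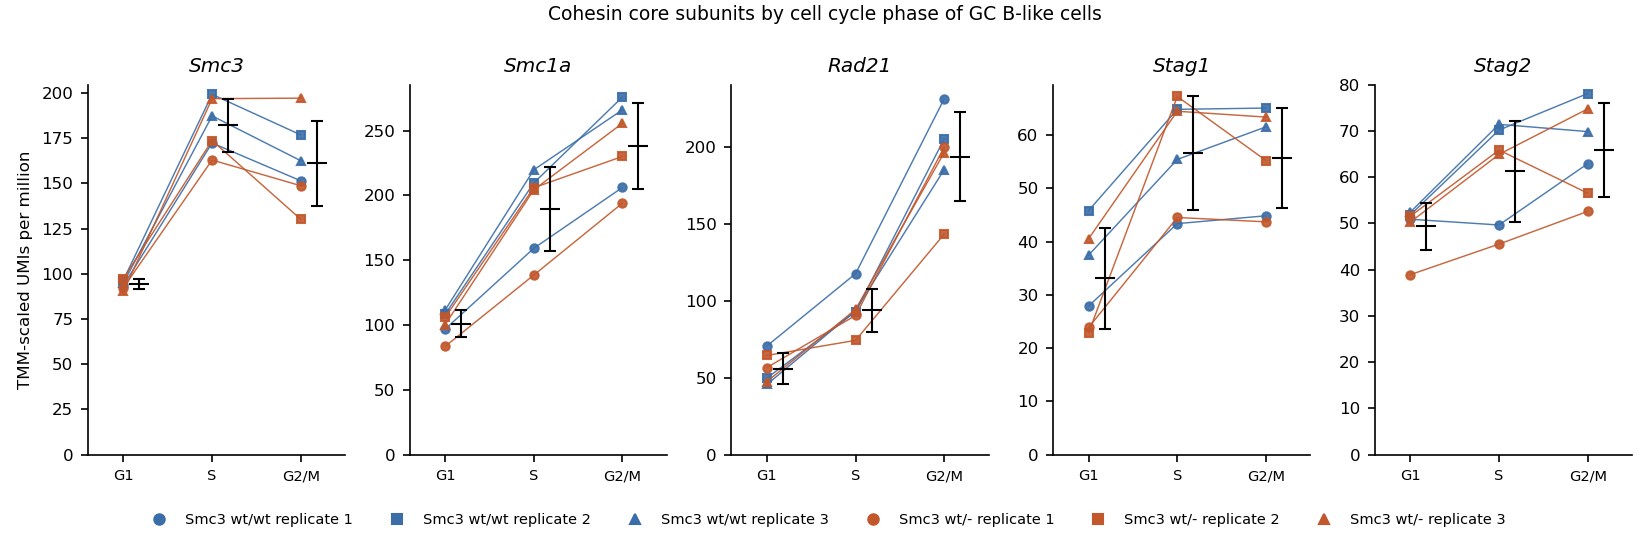
Level of each cohesin core subunit (TMM-scaled CPM, y axis from 0) in GC B-like cells called G1, S and G2/M, with 1 line per library, blue for *Smc3* wt/wt and orange for *Smc3* wt/-, and black marks for the mean and SD over 6 libraries. *Rad21* lies between 45.6 and 70.6 in G1 and between 143 and 231 in G2/M, and *Smc3* is highest in S in 5 of 6 libraries.

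Since a cohesin complex carries *Stag1* or *Stag2*, the share of *Stag1* among the UMIs of both genes was computed in each library. It is compared between states or phases, not read as a ratio of the proteins or transcripts, since 3′ counts do not place both genes on a common scale. The share was 46.5% ± 4.17 in naive or memory B-like, 45.6% ± 1.5 in GC B-like and 57.7% ± 4.73 in plasma-lineage cells (SD, n = 6). In plasma-lineage cells it was 50%, 55.9% and 56.8% in replicates 1, 2 and 3 of *Smc3* wt/wt, and 61.0%, 63.7% and 58.9% in the *Smc3* wt/- replicates. Every library had a larger share in plasma-lineage cells than in its own GC B-like cells, by 12.1 percentage points on average, and than in its own naive or memory B-like cells, by 11.2. The latter held in 5 of 6 libraries with no integration (11.9 points) and with haemoglobin genes left out of clustering (10.6 points).

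Both differences had an exact two-sided sign-flip permutation p of 0.03125, the smallest that 6 libraries allow, and 0.0625 after Benjamini-Hochberg adjustment over 6 differences, so they did not pass. GC B-like and naive or memory B-like cells differed by -0.922 points (exact permutation p 0.63), with a larger share in 3 of 6 libraries. Among G1 cells, a comparison added after the data were seen, the share was smaller in GC B-like cells in 6 of 6 libraries, 39.6% against 50.3%, a difference of -10.7 points (exact permutation p 0.03125, adjusted 0.0938), and the naive or memory B-like shares there rest on 12 to 134 UMIs. The widest gap was in *Smc3* wt/wt replicate 1, 35.4% against 66.7% from 12 UMIs, and without that library the mean difference was -6.60 points, smaller in GC B-like cells in 5 of 5. The plasma-lineage shares rest on 16 to 408 UMIs of both genes per library, and the exact (Clopper-Pearson) 95% interval was 24.7% to 75.3% where there were 16. Intervals cover counting error only. Among PB-like cells alone the differences were 10.2 and 9.28 points, and without *Smc3* wt/- replicate 2 they were 10.9 and 10.4. Among G1 cells they were 31.9 and 25.3 points, in the same direction in 5 of 5 libraries (exact permutation p 0.0625, the smallest that 5 libraries allow, adjusted 0.0938), from 1 to 364 UMIs per library, where the sum with 1 UMI gave a share of 100%.

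Across phases of GC B-like cells the *Stag1* share was 39.6% ± 6.02 in G1, 48.0% ± 2.54 in S and 45.8% ± 2.52 in G2/M (SD, n = 6). It was larger in S than in G1 in 6 of 6 libraries, by 8.45 points (exact permutation p 0.03125, adjusted 0.0625), and larger in G2/M than in G1 in 5 of 6, by 6.20 points (exact permutation p 0.0938, adjusted 0.141). It was smaller in G2/M than in S in 5 of 6, by 2.26 points (exact permutation p 0.125, adjusted 0.15). Without *Smc3* wt/- replicate 2, which had the lowest G1 share at 30.8% from 52 UMIs, the S and G2/M differences from G1 were 6.19 and 3.71 points. Both also shrank with doublets kept, to 3.97 points (larger in 4 of 6 libraries) and 1.96 (3 of 6), with no integration, to 4.96 (4 of 6) and 3.19 (4 of 6), and with thinned phase calls, to 4.44 (5 of 6) and 2.36 (5 of 6). With the looser cell filter they were 4.81 (6 of 6) and 2.69 (5 of 6), with haemoglobin genes left out of clustering 5.79 and 3.87 (5 of 6 each), and with the haemoglobin-led cluster counted as GC B-like 6.39 and 4.23 (5 of 6 each). That cluster also had *Cd83* and *Il4i1*, both on the light zone marker list, among its leading genes.

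**Figure D4:**
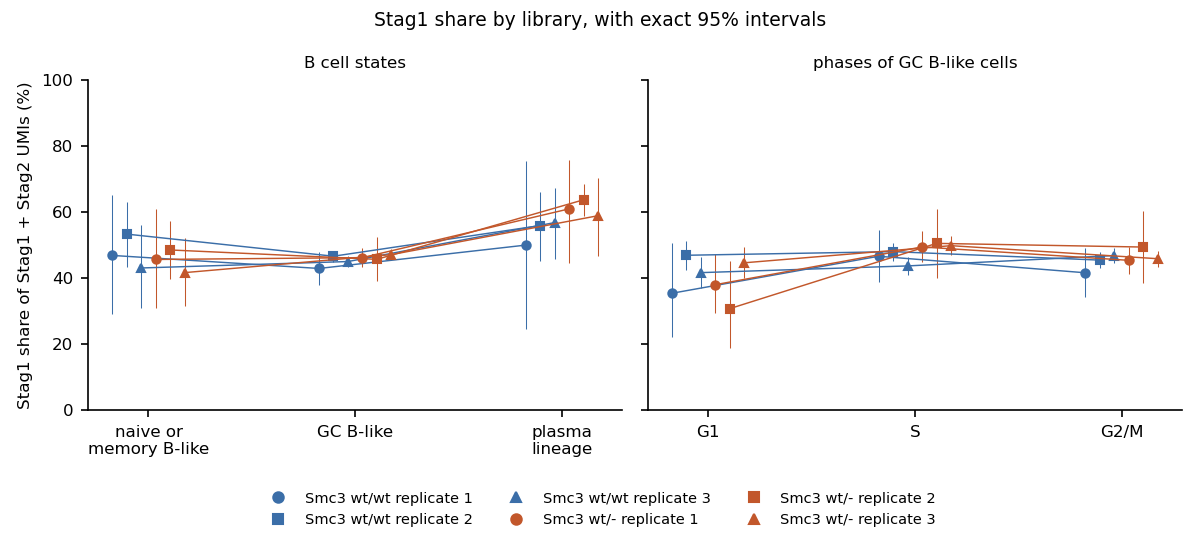
Share of *Stag1* among the UMIs of *Stag1* and *Stag2* (percent, y axis 0 to 100) in each library, with exact 95% intervals, for the 3 B cell states on the left and the phases of GC B-like cells on the right. The plasma-lineage share lies between 50% and 63.7% and exceeds the GC B-like share, 42.9% to 47.1%, in every library.

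The 8 finer classes of B lineage cells placed the peaks of the members apart. In CPM of all UMIs, *Smc3* was highest in recycling-like cells (183 ± 21.2, SD, n = 6), a cluster with *Hspd1*, *C1qbp* and *Srm* among its leading genes, in which 75% to 99.1% of cells per library were called S or G2/M, then in S-phase GC B-like (165 ± 8.53) and centroblast-like (CB-like) cells (158 ± 22.8). *Smc1a* was highest in CB-like cells (238 ± 25.6), followed by S-phase GC B-like cells (184 ± 25.5), and it was higher in the former in 6 of 6 libraries. *Rad21* was also highest in CB-like cells (192 ± 36.6), followed by recycling-like cells (124 ± 31.5) and S-phase GC B-like cells (78.0 ± 12.7), each step in 6 of 6 libraries.

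Of the Stag genes, *Stag1* was at 55.6 ± 7.83 in S-phase GC B-like cells, 53.4 ± 8.67 in CB-like cells and 39.0 ± 8.66 in naive or memory B-like cells. *Stag2* was highest at 70.8 ± 25.6 in other GC B-like cells, the GC clusters that met no finer name, against 67.3 ± 8.62 in S-phase GC B-like cells, and it was higher there in 2 of 6 libraries. It stood at 44.3 ± 5.90 in naive or memory B-like and 29.3 ± 9.76 in PB-like cells, lower in the latter in 6 of 6 libraries, and at 45.5 against 35.4 CPM, lower in 5 of 6, with immunoglobulin genes left out. Of the 35 pairs of neighbours in the 5 orders, none differed past the threshold after adjustment (lowest adjusted p 0.137, exact sign-flip permutation tests), and 8 had an unadjusted p below 0.05. The smallest p that 6 libraries allow in this test is 0.03125, so a pair could pass only if many other pairs reached it too. The lack of calls therefore does not show that neighbours are alike. The highest class of each member was the same with immunoglobulin genes left out.

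PC-like cells reached 20 cells in only 2 libraries. There *Smc3* was at 14.2 ± 4.69 CPM, *Rad21* at 7.09 ± 0.586 and *Stag2* at 3.58 ± 1.53 (SD, n = 2), the lowest class for every member. The smaller of the 2 sums rests on 7, 3 and 1 UMIs of these genes. With immunoglobulin genes left out the levels were 46.4 ± 14.7, 23.2 ± 1.57 and 11.8 ± 5.18 CPM, and PC-like cells stayed lowest for 4 members, while *Stag1* ranked 6 of 8, at 42.9 CPM against 42.2 in other GC B-like and 40.1 in naive or memory B-like cells. Immunoglobulin genes took 65.7% to 69.9% of the UMIs of PC-like cells, and CPM of the remaining genes is lowered by that share.

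The genes with patterns most like the members were sought over 44 sums of library and class, in log2 CPM with a pseudocount of 1. Without immunoglobulin genes, *Smc3* was most like *Dut* (Pearson r 0.954), *Rnaseh2b* (0.954) and *H2afz* (0.935), where *Dut* keeps uracil out of DNA and *Rnaseh2b* belongs to ribonuclease H2. *Smc1a* was most like *Hmgb2* (0.955), *Stmn1* (0.951) and *Lmnb1* (0.949), and *Rad21* like *Cenpe* (0.922), *Nucks1* (0.902) and *Ctcf* (0.901), the insulator protein at which cohesin loops stop. *Stag2* was most like *Mitd1* (0.910), *Rtn4ip1* (0.907) and *Car13* (0.897). *Stag1* had no such close match, with *Taf6* (0.704), *Tbc1d31* (0.687) and *Cchcr1* (0.681).

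These correlations are over sums that share 6 libraries and their depths, against a median r over 6904 genes of 0.102 to 0.310, and are given as descriptions. In CPM of all genes that median was 0.505 to 0.670. *Rpa3* (0.973) then led for *Smc3*, *Hmgb2* (0.968) for *Smc1a*, *Ctcf* (0.941) for *Rad21*, *Raly* (0.891) for *Stag1* and *Lamtor1* (0.954) for *Stag2*. Among the members, *Smc3* and *Smc1a* were the most alike (r 0.885 without immunoglobulin genes) and *Stag1* with *Stag2* (0.360) and *Smc3* with *Stag2* (0.372) the least. In CPM of all genes *Smc3* and *Smc1a* were again the most alike (0.939), *Stag1* with *Stag2* stood at 0.841, and *Smc3* with *Stag2* was the least alike pair (0.692).

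The regulators of cohesin moved in the same comparisons. Of 15 genes known for loading, releasing, acetylating, protecting, cutting or positioning cohesin, 11 were higher and 2 lower in GC B-like than in naive or memory B-like cells, beside 26.1% and 27.1% of all genes, with a median log2 fold change of 0.67 against 1.0 for the 5 members and -0.02 for all genes tested. *Esco2*, which acetylates *Smc3* in S phase, was at 2.98 (SE 0.26, adjusted p 2.4e-07), *Sgo2a*, a shugoshin that shields centromeric cohesin, at 2.05 (SE 0.35, adjusted p 0.000159), and *Cdca5*, or sororin, at 1.88 (SE 0.31, adjusted p 0.000116). From G1 to G2/M 13 of 15 were higher and 2 lower, led by *Sgo2a* (5.35, SE 0.13), *Sgo1* (4.11, SE 0.12) and *Cdca5* (4.03, SE 0.13), with adjusted p of 8.4e-28, 4.3e-25 and 2.4e-24. Of all genes, 29.3% were higher and 29.4% lower from G1 to G2/M. From GC B-like to plasma-lineage cells none were higher and 7 lower, beside 24.2% and 29% of all genes.

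Among G1 cells 10 of the 15 regulators passed the low-count filter, and 2 were higher and 2 lower in GC B-like than in naive or memory B-like cells, a share near the 22% and 22.8% of all genes. Of 5 other SMC genes, *Smc2* (1.77, SE 0.29, adjusted p 9.8e-05) and *Smc4* (1.18, SE 0.11, adjusted p 3.0e-07), the ATPases of condensin, were the 2 that were higher over all cells, and none were lower, beside 26.1% and 27.1% of all genes. Among G1 cells none of the 5 were higher and 1 was lower. All 5 were higher in G2/M than in G1, beside 29.3% of all genes higher and 29.4% lower, with *Smc2* at 3.43 (SE 0.08), *Smc4* at 2.78 (SE 0.06) and *Smc6* at 0.62 (SE 0.05). *Smc4* and *Ctcf* are themselves among the genes that called G2/M. The 4 meiotic subunits *Smc1b*, *Stag3*, *Rad21l* and *Rec8* were below the low-count filter in every comparison.

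The genotypes were compared within each state, with levels scaled within the state. The targeted gene *Smc3* was at 150.3, 169 and 159 TMM-scaled CPM in GC B-like cells of the *Smc3* wt/wt libraries, in replicate order, and at 145, 132 and 176 in the libraries labelled *Smc3* wt/-. The groups overlapped, since *Smc3* wt/- replicate 3 was the highest of all 6. In naive or memory B-like cells the values were 65.7, 84.7 and 64.1 against 72.5, 52.9 and 73.2, and in plasma-lineage cells 60.1, 77.0 and 75.8 against 72.4, 43.8 and 72.2. The lowest value in each of the 3 states belonged to *Smc3* wt/- replicate 2.

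The log2 fold change of *Smc3* (*Smc3* wt/- minus *Smc3* wt/wt) was -0.07 in GC B-like cells (SE 0.14, 95% interval -0.40 to 0.25), -0.14 in naive or memory B-like cells (SE 0.22, -0.63 to 0.35) and -0.21 in plasma-lineage cells (SE 0.26, -0.80 to 0.38). None passed (lowest adjusted p 0.878, edgeR). A transcript without exon 4 would be counted too where it persists, which was not tested, so these counts do not check the label. Without *Smc3* wt/- replicate 2 the values were 0.01 in GC B-like, 0.01 in naive or memory B-like and -0.02 in plasma-lineage cells, and *Rad21* in plasma-lineage cells, -0.31 over all libraries, was at -0.05.

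The other members did not pass either, nor did any gene (0% of 6927 genes in naive or memory B-like, 10983 in GC B-like and 5946 in plasma-lineage cells). *Smc1a* had 94.3, 87.6 and 91.1 TMM-scaled CPM in naive or memory B-like cells of *Smc3* wt/wt libraries against 82.7, 57.6 and 86.4 in *Smc3* wt/- libraries. These groups did not overlap, the only such case of 15 members and states, although in CPM without TMM scaling they did (82.0 to 105 against 50.1 to 90.5). How many of all genes had such groups was not counted, so the case by itself does not set *Smc1a* apart. The log2 fold change of *Smc1a* there was -0.27 (SE 0.21, -0.74 to 0.19). Without *Smc3* wt/- replicate 2 it was -0.09. In GC B-like cells *Smc1a* was at 168, 218 and 221 against 155, 179 and 208, a log2 fold change of -0.17 (SE 0.16), which was -0.07 without *Smc3* wt/- replicate 1. *Rad21* was at 157, 133 and 128 against 135, 93.6 and 132 in GC B-like cells (-0.20, SE 0.17), and its value was -0.05 without *Smc3* wt/- replicate 2.

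*Stag1* and *Stag2* were at -0.09 (SE 0.19) and -0.17 (SE 0.16) in GC B-like cells, at -0.21 (SE 0.27) and -0.03 (SE 0.22) in naive or memory B-like cells and at 0.01 (SE 0.32) and -0.35 (SE 0.31) in plasma-lineage cells. *Stag2* in plasma-lineage cells was at -0.10 without *Smc3* wt/wt replicate 2. In that state *Smc1a* was at -0.22 (SE 0.35) and *Rad21* at -0.31 (SE 0.29), and *Rad21* was at 0.00 (SE 0.27) in naive or memory B-like cells. Every interval of the genotype comparisons included 0.

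Beside the 0 genes called between genotypes by edgeR, unadjusted p was below 0.05 for 131, 178 and 229 genes in naive or memory B-like, GC B-like and plasma-lineage cells, and DESeq2 called 0, 3 and 0. The difference of the genotype effect between GC B-like and naive or memory B-like cells was 0.04 for *Smc3* (SE 0.18), 0.10 for *Smc1a* (SE 0.22), -0.21 for *Rad21* (SE 0.19), 0.09 for *Stag1* (SE 0.27) and -0.15 for *Stag2* (SE 0.21). No gene of 9056 passed (0%), 265 had an unadjusted p below 0.05 and DESeq2 called 2. With the presence of Y-linked transcripts as a covariate no member, X-linked *Smc1a* and *Stag2* included, was called.

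**Figure D5:**
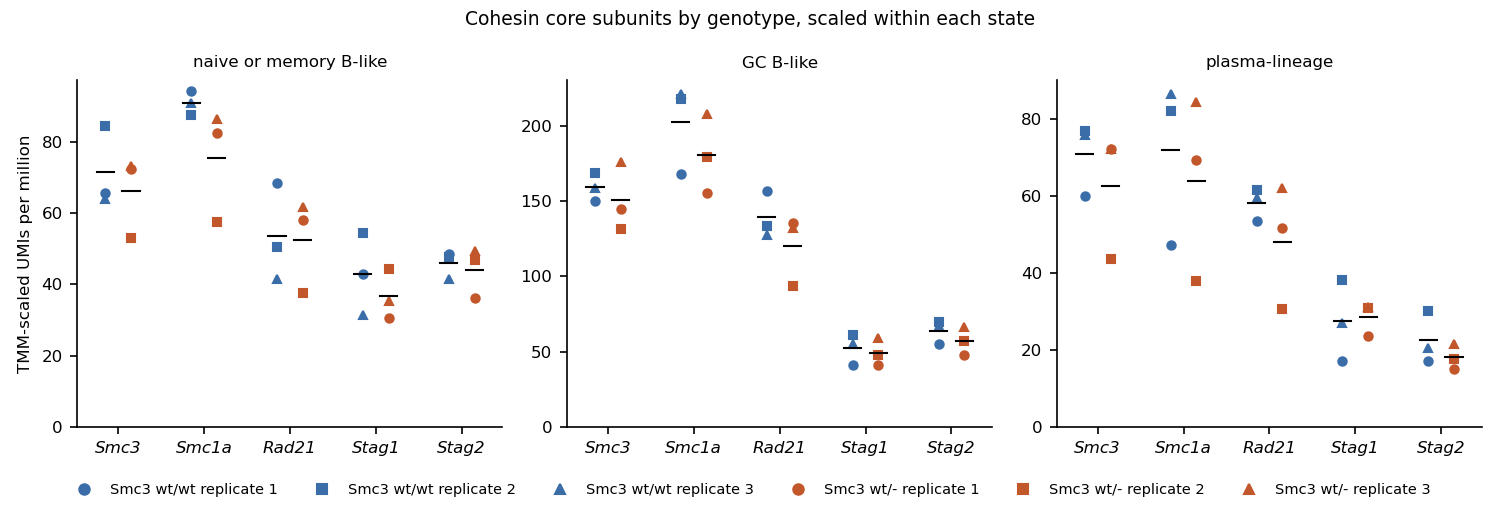
Level of each member (TMM-scaled CPM, scaled within each state, y axes from 0) in the 3 libraries labelled *Smc3* wt/wt (blue) and the 3 labelled *Smc3* wt/- (orange), with a black bar at each mean. On this scale the groups overlap for every member and state except *Smc1a* in naive or memory B-like cells, where 57.6 to 86.4 stands against 87.6 to 94.3.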

How the data were processed

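Splenic cells of 6 mouse libraries were profiled by 10x Genomics 3′ v2 single cell RNA-seq. The deposited values are whole-number UMI counts per gene and barcode, made by the authors with Cell Ranger 3.0.2 (per the file headers) on mm10 (per the submitters' processing notes, which also name R 4.0.2 and Seurat 4.0.0), with no normalization. Genotype and replicate come from the labels. Additional wild-type libraries that the study integrated were not analysed here. The members and lists were chosen with earlier results of these data known.

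Cells with at least 500 genes and at most 10% mitochondrial UMIs were kept (21568), and the 721 with the highest Scrublet doublet scores were removed, 0.784% to 4.15% per library. Libraries were integrated by reciprocal PCA (Seurat 5.3.0) on 1882 of 2000 variable genes, leaving out members, regulators, other SMC, immunoglobulin, mitochondrial and ribosomal genes, and clustered at resolution 0.5 into 19 clusters. Clusters were named from marker lists, where rebuilt names may differ from those of the study. Phases were called with Seurat's S and G2/M lists.

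Counts were summed per library and state, class or phase with at least 20 cells. They were tested with edgeR 4.0.16 (R 4.3.3; TMM, filterByExpr, quasi-likelihood) with library as a block, or without a block between genotypes, and Benjamini-Hochberg adjustment at 0.05 over all genes tested. Intervals are at 95%. The script was tested on simulated data. Shares and class orders were tested by exact sign-flip permutation over libraries. Named genes were the 5 members in every comparison, the 3 genes of each list with the largest change past the threshold in GC B-like against naive or memory B-like cells and in G2/M against G1, and the 3 genes most like each member among those with a mean of at least 10 CPM. Alternatives were DESeq2 1.42.0, RLE scaling, no low-count filter, no immunoglobulin genes, other cell filters and clusterings, thinned phase calls, a Y-linked covariate, a replicate block and leaving out each library. Every pair of libraries of the same genotype differed by more than sampling noise. Deviations from the genotype means of same-numbered naive or memory B-like libraries correlated at 0.332, 0.246 and 0.101, all above a cut of 0.1. Differently numbered libraries were not correlated, so it is not established that the replicate numbers, which come from the titles, pair these sums. The genotype results above are from the fit without a replicate block, and adding the block changed no call in these sums.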

Additional observations from a re-analysis of the deposited data

Results flagged for a closer look

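In 45 groups of 5 or 6 libraries (5 members in 3 states, in 3 states of G1 cells and in 3 phases), 5 held a library whose gap to its nearest neighbour passed Dixon's 95% critical value, where chance flags about 1 in 20 groups. *Stag2* in G1 GC B-like cells was lowest in *Smc3* wt/- replicate 1, at 38.9 TMM-scaled CPM in the phase comparison and at 28.0 in the comparison of G1 states, which are the same cells scaled with different partners. *Smc1a* in naive or memory B-like cells was lowest in *Smc3* wt/- replicate 2, at 51.2. *Rad21* in G1 naive or memory B-like cells was highest in *Smc3* wt/wt replicate 1, at 48.3. *Stag1* in G1 plasma-lineage cells was lowest in *Smc3* wt/- replicate 1, at 8.53, where it rests on 1 UMI.

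The members were also counted in cells that entered no main comparison. In the haemoglobin-led cluster the median over the 6 libraries was 70.5 CPM for *Smc3*, 75.2 for *Smc1a*, 44.1 for *Rad21*, 43.7 for *Stag1* and 50.02 for *Stag2*. In cells of the other clusters it was 80.3 for *Smc3*, 94.6 for *Smc1a*, 72.7 for *Rad21*, 37.1 for *Stag1* and 51.7 for *Stag2*. These are levels in CPM of all UMIs and were not tested.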

How the results depend on the processing

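Of the 11 member calls between states, 181 of 187 alternative values kept direction and call; for the 7 calls among G1 cells this was 104 of 126 and for the 14 calls between phases 245 of 252. The number of members called in GC B-like against naive or memory B-like cells went from 3 to 5 with no low-count filter and with no integration. Leaving out that filter moved the median log2 fold change of all genes to 0.38, from -0.02, and to -0.36, from -0.08, in plasma-lineage against GC B-like cells. For plasma-lineage against GC B-like cells 2 members were called among PB-like cells only. Among G1 cells that comparison went from 3 members to 1 with thinned phase calls and to 0 among PB-like cells only. Plasma-lineage against naive or memory B-like G1 cells went from 2 members to 1 with DESeq2, RLE scaling or no low-count filter, to 0 among PB-like cells only, and to 0 to 2 when each library was left out in turn. The cause of these and the following changes was not tested.

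The values that changed sign were not called in the reported comparisons. *Stag1* in plasma-lineage against GC B-like cells turned to -0.24 with no low-count filter, -0.00014 with doublets kept and -0.025 with no integration, and ranged from -0.016 to 0.074 over left-out libraries. Among G1 cells *Stag2* in GC B-like against naive or memory B-like cells turned to -0.0060 with no integration, *Rad21* in plasma-lineage against GC B-like cells to -0.0024 with no low-count filter, and *Smc1a* in plasma-lineage against naive or memory B-like cells to -0.059 with DESeq2, -0.049 with RLE scaling and -0.058 with no low-count filter (-0.087 to 0.15 over left-out libraries). *Stag1* in G2/M against S turned to -0.016 with thinned phase calls and ranged from -0.019 to 0.038.

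Between genotypes no member was called under any alternative run. In naive or memory B-like cells *Rad21* turned to -0.0042 with DESeq2, -0.062 with doublets kept, -0.26 with no integration, -0.046 with haemoglobin genes left out of clustering, -0.052 with the Y-linked covariate and -0.023 with the replicate block. *Stag2* turned to 0.090 with no integration, 0.045 without haemoglobin genes and 0.012 with the Y-linked covariate. Over left-out libraries *Smc3* ranged from -0.22 to 0.026, *Smc1a* from -0.39 to -0.094, *Rad21* from -0.16 to 0.23, *Stag1* from -0.42 to 0.050 and *Stag2* from -0.12 to 0.078. Over all alternatives the lowest values were -0.29 for *Smc3* and -0.44 for *Smc1a*. Over left-out libraries in GC B-like cells *Smc3* ranged from -0.20 to 0.014, *Smc1a* from -0.29 to -0.073, *Rad21* from -0.29 to -0.050, *Stag1* from -0.26 to 0.034 and *Stag2* from -0.30 to -0.053. In plasma-lineage cells *Smc1a* ranged from -0.49 to 0.019 and *Stag1* from -0.19 to 0.30, and *Stag1* turned to -0.029 with no low-count filter, -0.0035 without immunoglobulin genes, -0.0075 with a looser cell filter, -0.029 with no integration and -0.084 among PB-like cells only. The interaction ranged from -0.071 to 0.16 for *Smc3*, -0.13 to 0.29 for *Smc1a* and -0.079 to 0.34 for *Stag1*, which was -0.071 with the Y-linked covariate. It ranged from -0.32 to -0.11 for *Rad21*, which was -0.0044 with no integration, and from -0.24 to -0.044 for *Stag2*.

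The replicate block gave *Smc3* -0.08 in GC B-like, -0.16 in naive or memory B-like and -0.24 in plasma-lineage cells and changed no call. Same-numbered libraries correlated at 0.0884 to 0.224 in GC B-like and 0.0831 to 0.170 in plasma-lineage cells. Genes called between genotypes, 0 in each comparison, became 33 in naive or memory B-like and 7 in plasma-lineage cells with no low-count filter and 48 for the interaction, 3 in GC B-like cells and 2 for the interaction with DESeq2, 1 for the interaction with a looser cell filter and 1 with doublets kept, and 1 in plasma-lineage cells and 7 for the interaction without *Smc3* wt/- replicate 2. The *Stag1* share in GC B-like minus naive or memory B-like cells turned to 1.10 points with a looser cell filter and 0.606 with no integration, ranged from -2.20 to 0.233 over left-out libraries, and was -10.7 among G1 cells. In plasma-lineage cells the genotype difference ranged from -0.34 to -0.016 for *Smc3*, -0.55 to -0.054 for *Rad21* and -0.50 to -0.098 for *Stag2* over left-out libraries. Depth limits the naive or memory B-like and plasma-lineage values, where *Stag1* and *Stag2* have as few as 15 and 17 UMIs per library in the former and 8 each in the latter, and no G1 plasma-lineage value of *Smc3* wt/- replicate 1 rests on more than 7 UMIs.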
